A study of Bos taurus with 8 samples.

Results

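Bone morphogenetic proteins (BMPs) are secreted ligands that bind a pair of receptor types on the cell surface. The activated receptors phosphorylate SMAD1 and SMAD5, which join SMAD4, enter the nucleus and switch on target genes, among them the ID genes, whose products block the DNA binding of basic helix-loop-helix transcription factors. The pathway is known for holding mouse embryonic stem cells in the pluripotent state and for turning human pluripotent cells into trophoblast. The 10 genes described here are the ligands BMP4 and BMP7, the receptors BMPR1A and BMPR2, the signal carriers SMAD1, SMAD4 and SMAD5, and the targets ID1, ID2 and ID3. Of these 10 genes, 9 had at least 1 probe whose RefSeq accession matched, out of 12603 genes with a named probe on the array, and all 9 were among the 10958 genes tested. No probe matched BMPR2, which has no value here.

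RNA was measured on 8 one-colour Agilent bovine arrays, 1 array per sample, all from HanWoo cattle. Embryo-derived stem-like cells (eSLCs) came from in vitro produced (IVP), somatic cell nuclear transfer (NT) and parthenogenetic (PA) blastocysts, with 2 lines each: I2 at passage 35 and I9 at passage 30, N2 at passage 36 and N7 at passage 30, and P1 at passage 31 and P4 at passage 36. The somatic cells (SCs) were sampled at passages 5 and 10, and the labels do not say whether both came from 1 culture, so p-values measure the spread between these arrays only. Every eSLC line grew in serum-free 3i medium with the inhibitors PD184352 (of MEK), SU5402 (of FGF receptors) and CHIR99021 (of GSK3), on inactivated mouse STO feeder cells according to the methods, while the SCs grew in DMEM with serum. Culture medium, feeder cells, passage and cell type therefore cannot be told apart in any comparison with SCs.

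Between 71.2% and 76.7% of the spots of each array were well above background. All 8 trophectoderm markers with a probe were well above background on every eSLC array, with a summed signal of 341884 to 1100640 against 12129 to 12639 in SCs. KRT8, KRT18 and PAG2 were the brightest of them on every eSLC array. Of the 8 markers, 5 were also well above background on both SC arrays. TFAP2A was 2753 to 11981 in eSLCs and 9013 and 9771 in SCs, and only N2 lay above both SC arrays. For 10 fibroblast markers the sum was 13453 to 69720 in eSLCs and 692338 to 855512 in SCs. The 6 epiblast markers summed to 324 to 1352 in eSLCs and 528 to 630 in SCs, and they did not move together. SOX2 was 46.8 to 99.4 in eSLCs and 459 and 551 in SCs. LIN28A was 187 to 316 in eSLCs and not well above background in SCs, and POU5F1 was 30.7 to 898 against 16.3 and 26.0. NANOG was well above background on 5 of the 6 eSLC arrays and 0 SC arrays, and PRDM14 and DPPA3 on 1 of the 6 eSLC arrays each. Line N7 stood apart, with 3 hypoblast markers summing to 118182 against at most 8804 in the other eSLC lines. APOA1 alone gave 112600 of that sum, and SOX17, at 2664 in N7, lay within the 1908 to 2946 of the other lines. The part of these marker differences in the results below was not tested. In RNA from bulk cultures, fewer cells that express a gene and less RNA per cell cannot be told apart.

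Signals below are background-subtracted intensities with the 75th percentile of each array set to 1000, and levels of different probes are not compared with each other. A gene was called when limma gave a Benjamini-Hochberg adjusted p under 0.05 over all 10958 genes and the difference was at least 2-fold. In eSLCs against SCs, 6 of the 9 BMP genes were called, 1 higher and 5 lower, where 35.4% of all genes tested were called, 19.7% higher and 15.7% lower. The arrays of the 2 cell types did not overlap for 6 of the 9 genes, against 57.6% of all genes tested. ID2 was the gene called higher, and BMP4, SMAD4, SMAD5, ID1 and ID3 were called lower. The median log2 difference was -1.03 over the 9 genes and 0.23 over all genes tested. The authors' normalized table gives the opposite direction for the probes of SMAD5 and ID1 used here, as described with the probes below.

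**Figure D1:**
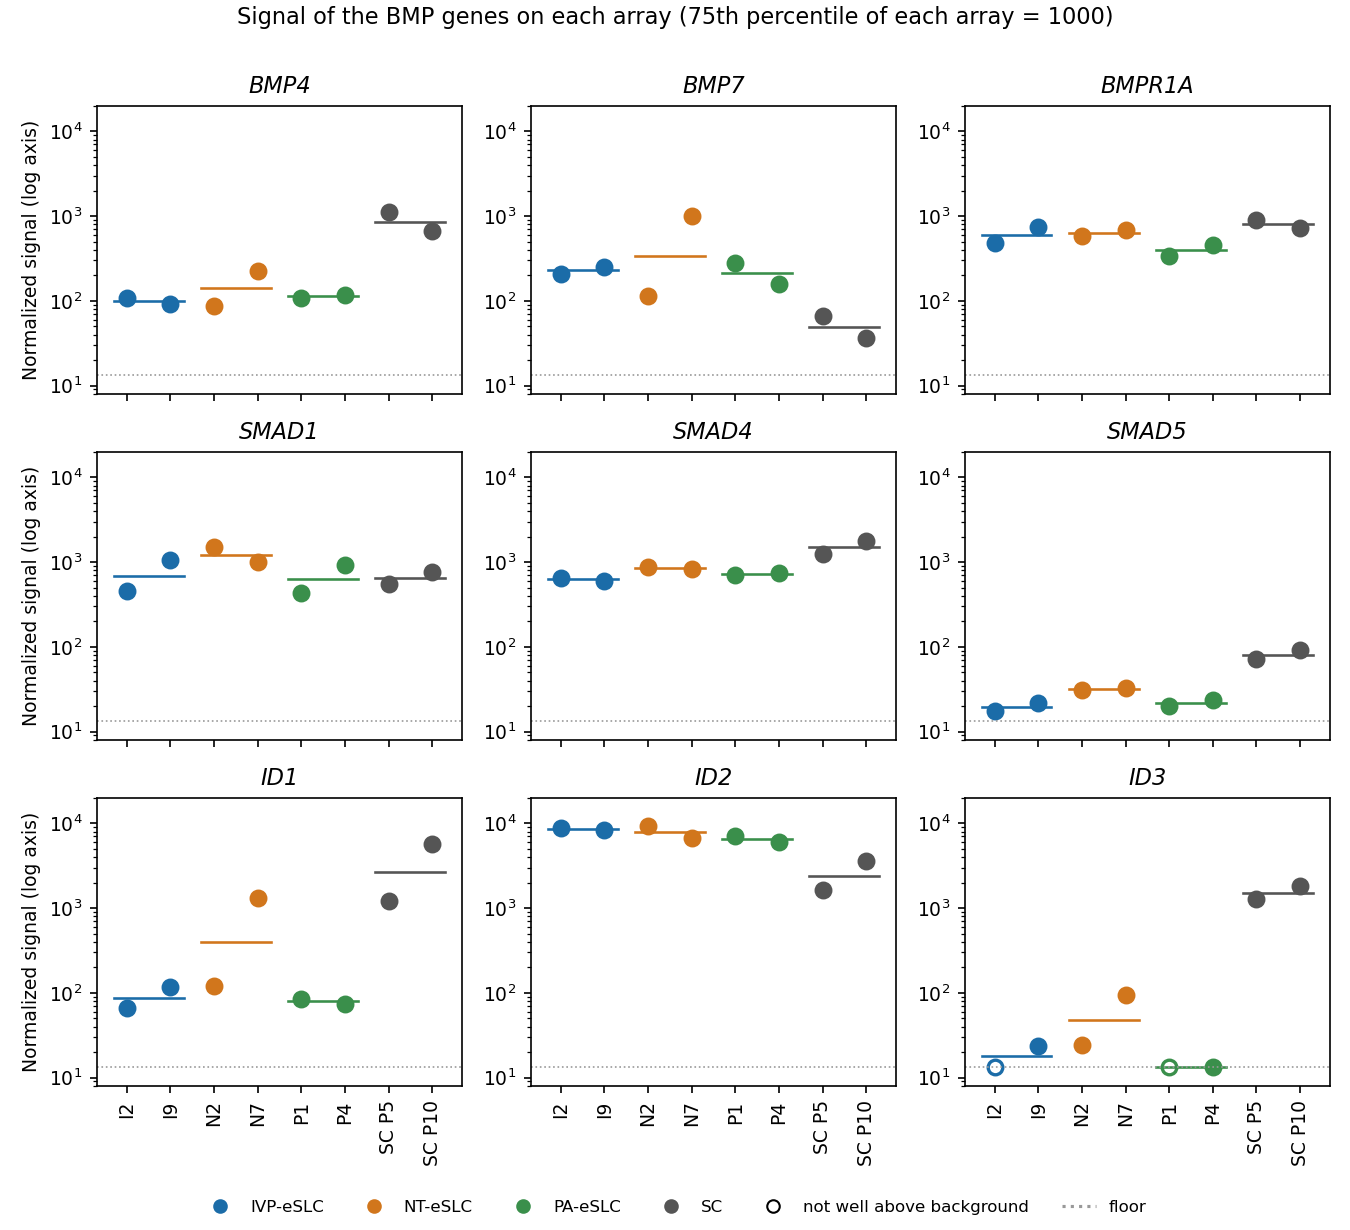
Normalized signal of 9 BMP genes (log vertical axis, 75th percentile of each array at 1000) on 8 arrays, with 1 point per array, a line at the geometric mean of each condition and a dotted line at the floor of 13.3. BMP4, SMAD4, SMAD5 and ID3 lie higher on both SC arrays than on any eSLC array, BMP7 and ID2 lie lower, and line N7 lies above the other eSLC lines for BMP4, BMP7, ID1 and ID3.

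The ligands differed from SCs in opposite directions. BMP4, a ligand with roles in mesoderm and trophoblast formation, was lower in eSLCs. Its signal was 107 in I2, 91.9 in I9, 88.0 in N2, 223 in N7, 108 in P1 and 117 in P4, against 1117 and 664 in SCs at passages 5 and 10. Every eSLC line lay below both SC arrays, and 5 of the 6 lines lay close together with N7 above them. The mean was 7.42-fold higher in SCs, a log2 difference of -2.89 (SE 0.391, limma adjusted p = 0.00208). It was called lower in each origin, by -3.12 in IVP-eSLCs, -2.62 in NT-eSLCs and -2.93 in PA-eSLCs on the log2 scale, each against the same 2 SC arrays.

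BMP7, a ligand of another branch of the family, had the higher signal in every eSLC line. It was 207 in I2, 253 in I9, 113 in N2, 997 in N7, 280 in P1 and 159 in P4, against 66.9 and 36.5 in SCs. The lowest line, N2, was still above both SC arrays, and the NT lines N2 and N7 were the lowest and the highest of the 6. The log2 difference was 2.36 (SE 0.810, limma adjusted p = 0.0559), which did not pass the threshold. When 1 array was left out, the difference ran from 1.83 (without N7) to 2.88 (without N2). BMP7 was called higher in 7 of 22 alternative fits and was not called in the other 15. These 22 leave out the authors' table without rescaling and the t-test without adjustment, which also called it higher. The limma adjusted p was 0.0175 with the slide as a block. It was 0.0662 after quantile normalization and 0.111 without the filter on dim genes. The gene had 4 probes, all higher in eSLCs, with log2 differences from 0.90 to 3.63.

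BMPR1A, a type I receptor that binds BMP4, showed a small difference. Its signal was 486 in I2, 744 in I9, 586 in N2, 680 in N7, 337 in P1 and 457 in P4, against 900 and 716 in SCs. I9 lay between the SC arrays, and the PA lines were the lowest. Over all eSLCs the log2 difference was -0.60 (95% confidence interval -1.19 to -0.01, limma adjusted p = 0.0870), short of both thresholds. In PA-eSLCs BMPR1A was called lower, by -1.03 on the log2 scale (limma adjusted p = 0.0350), whereas it was not called in IVP-eSLCs (-0.42) or NT-eSLCs (-0.35). The difference between PA- and IVP-eSLCs was itself not called (-0.62, limma adjusted p = 0.852), nor that between PA- and NT-eSLCs (-0.68, limma adjusted p = 0.514).

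Among the signal carriers, SMAD4 and SMAD5 were lower in eSLCs and SMAD1 was not called. SMAD5 had 1 dim probe, with signals of 17.3 in I2, 21.6 in I9, 30.5 in N2, 32.7 in N7, 19.9 in P1 and 23.6 in P4, against 70.9 and 91.1 in SCs. These values were well above background on all 8 arrays and lay near the floor of 13.3 in eSLCs. No eSLC line reached the lower SC array, and both NT lines lay above the other 4. The mean was 3.40-fold higher in SCs, a log2 difference of -1.76 (SE 0.186, limma adjusted p = 0.000783), and SMAD5 was called in each origin (-2.06 in IVP-, -1.35 in NT- and -1.89 in PA-eSLCs).

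SMAD4, the partner that SMADs of the BMP and the TGF-beta branches share, had signals of 654 in I2, 601 in I9, 877 in N2, 818 in N7, 704 in P1 and 750 in P4, against 1238 and 1791 in SCs. The eSLC lines differed little among themselves, over a range of 0.55 on the log2 scale, and all lay below both SC arrays. The log2 difference of -1.03 (SE 0.187, limma adjusted p = 0.00632) was just past the 2-fold limit. It fell short of that limit with the mean of the 3 SMAD4 probes (-0.83), without SC passage 10 (-0.77), and in NT-eSLCs alone (-0.81). In the authors' normalized table SMAD4 was not called (-0.94, limma adjusted p = 0.332).

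SMAD1, the other BMP signal carrier measured, had signals of 452 in I2, 1051 in I9, 1488 in N2, 1005 in N7, 427 in P1 and 931 in P4, against 555 and 757 in SCs. I2 and P1 lay below both SC arrays and the other 4 lines above both. The log2 difference was 0.32, with a 95% confidence interval from -0.78 to 1.42 (limma adjusted p = 0.582), so that a 2-fold difference in the higher direction lay within the interval and one in the lower direction did not. SMAD1 was also not called in any single origin.

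The target genes did not differ from SCs in 1 direction: ID3 and ID1 were lower in eSLCs, with the largest log2 differences of the 9 genes, and ID2 was higher. ID3 was well above background on both SC arrays, at 1264 and 1829. In eSLCs it was 23.8 in I9, 24.3 in N2 and 93.0 in N7, and at or below the floor of 13.3 in I2, P1 and P4, of which I2 and P1 were not well above background. Even N7 was far below either SC array. With the 3 low arrays at the floor, the fitted log2 difference was -6.08 (SE 0.531, limma adjusted p = 0.000384), a value that depends on that floor. ID3 was called lower in IVP-eSLCs (-6.42), NT-eSLCs (-5.00) and PA-eSLCs (-6.84).

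ID1 was lower in 5 of the 6 eSLC lines by more than the spread of those lines. Its signal was 66.6 in I2, 116 in I9, 120 in N2, 85.1 in P1 and 74.6 in P4, and 1328 in N7, against 1205 and 5753 in SCs. N7 lay above SC passage 5, so the groups overlapped, and the SC arrays differed from each other by 2.26 on the log2 scale. The log2 difference was -4.22 (SE 1.01, limma adjusted p = 0.0171), and -4.80 without N7 (adjusted p = 0.00550). ID1 was called lower in IVP-eSLCs (-4.90) and PA-eSLCs (-5.05) and not in NT-eSLCs (-2.72, limma adjusted p = 0.139). The call over all eSLCs was lost when 1 of 5 arrays was left out: the adjusted p was 0.0549 without I2, 0.0502 without P1, 0.0620 without P4, 0.0611 without SC passage 5 and 0.171 without SC passage 10, with differences between -3.10 and -5.35.

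ID2 had the opposite sign, with signals of 8837 in I2, 8425 in I9, 9219 in N2, 6738 in N7, 7136 in P1 and 6040 in P4, against 1624 and 3573 in SCs. The eSLC lines spanned only 0.61 on the log2 scale and all lay above both SC arrays. The mean was 3.17-fold higher in eSLCs, a log2 difference of 1.67 (SE 0.324, limma adjusted p = 0.00812). ID2 was called higher in each origin, by 1.84 in IVP-, 1.71 in NT- and 1.45 in PA-eSLCs. It was lowest among the 6 lines in P4, N7 and P1, whereas ID1 and ID3 were highest in N7.

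**Figure D2:**
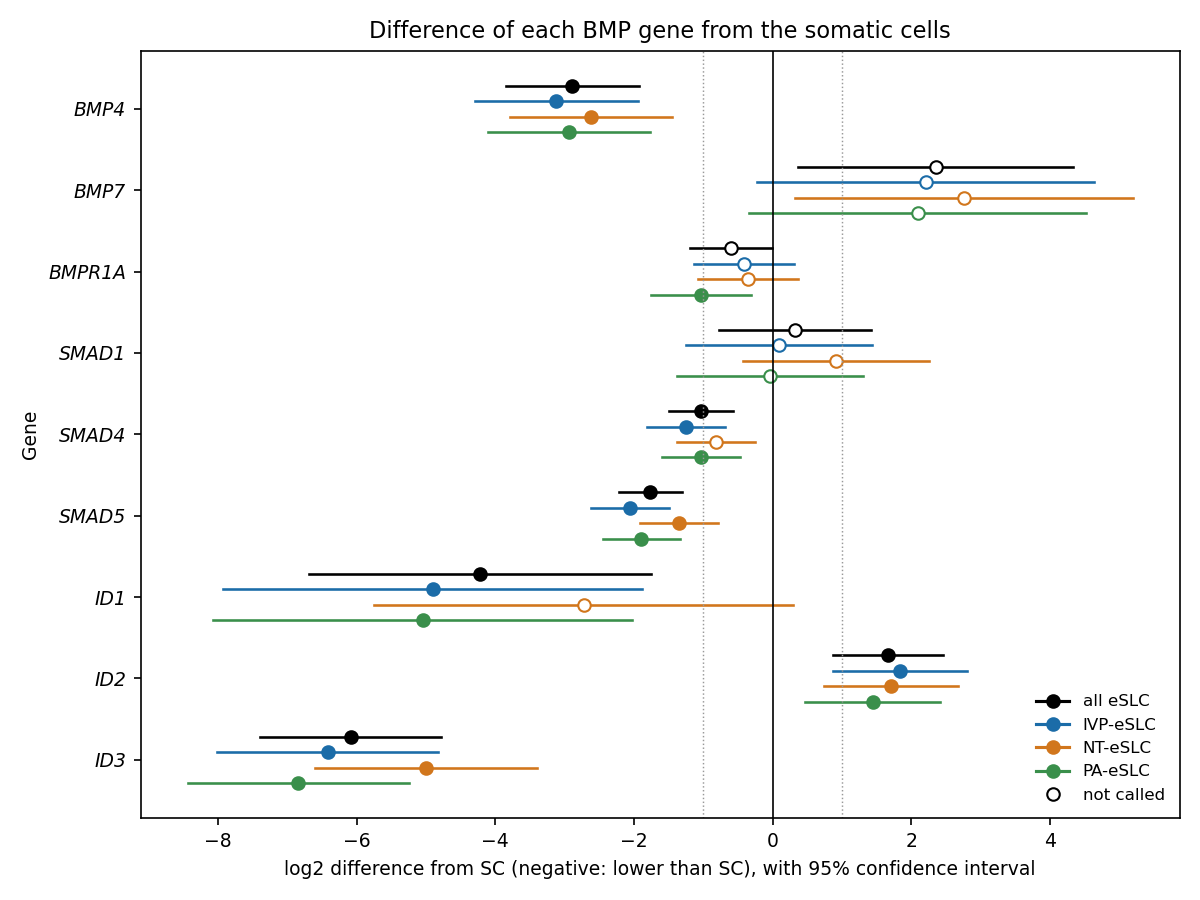
Log2 difference from SCs (horizontal axis) of 9 BMP genes for the mean of the 3 origins and for each origin, with 95% confidence intervals from limma, filled points for genes called, open points for genes not called, and dotted lines at 2-fold. The intervals of ID2 lie above 0 and those of BMP4, SMAD4, SMAD5 and ID3 below 0 in every origin, while those of ID1 in NT-eSLCs and of SMAD1 cross 0.

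By origin, 6 of the 9 genes were called in IVP-eSLCs, where 32.3% of all genes tested were called, and of these 1 was higher (17.7% of all genes) and 5 were lower (14.6%). In NT-eSLCs 4 of the 9 were called (BMP4, ID2, ID3 and SMAD5), against 29.8% of all genes, with 1 higher (15.8%) and 3 lower (13.9%). In PA-eSLCs 7 of the 9 were called, against 35.2% of all genes, with 1 higher (20.3%) and 6 lower (14.9%). Both lines of an origin lay outside the 2 SC arrays on 1 side for 7 genes in IVP-eSLCs (75.7% of all genes tested), 8 in NT-eSLCs (70%) and 8 in PA-eSLCs (78%). All 3 comparisons use the same 2 SC arrays, so their counts are not independent. The PA-eSLC count fell when P1, P4 or either SC array was left out, which leaves 1 array in a condition. Without P1 the share of all genes called fell as well. None of these counts says that the origins differ, which was tested directly.

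Between origins, limma called 0 of the 9 genes in each of 3 comparisons, and 0% of all genes tested. At an unadjusted p under 0.05 there was 1 gene in NT- against IVP-eSLCs, SMAD5 with a log2 difference of 0.71 (95% confidence interval 0.15 to 1.26), and 1 in PA- against NT-eSLCs, ID3 with -1.84 (-3.43 to -0.24), and 0 in PA- against IVP-eSLCs. The methods' t-test called 0 in each of these comparisons with or without adjustment, once the 2-fold limit was applied. The lines of an origin did not overlap with those of the other for 4 of the 9 genes in NT- against IVP-eSLCs (23.2% of all genes), 4 in PA- against IVP-eSLCs (35.1%) and 6 in PA- against NT-eSLCs (36.9%). In that last comparison BMPR1A, SMAD1, SMAD4, SMAD5, ID1 and ID3 were each higher in both NT lines. With 2 lines per origin the intervals were wide, and for ID1 the interval of NT- minus IVP-eSLCs ran from -0.84 to 5.20.

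The 2 slides each held SCs and eSLCs. Slide 1 held I2, I9, N7 and SC passage 5, and slide 2 held N2, P1, P4 and SC passage 10. All 9 genes had the same direction within both slides. The log2 difference of BMP4 was -3.10 within slide 1 and -2.68 within slide 2, that of BMP7 was 2.48 and 2.23, and that of SMAD5 was -1.62 and -1.91. The ID genes varied more, with -2.47 and -5.98 for ID1, 2.29 and 1.04 for ID2 and -5.36 and -6.81 for ID3. ID1 and ID2 were both higher in SC passage 10 than in SC passage 5, and slide and passage cannot be told apart for the SC arrays. Both IVP lines were on slide 1 and both PA lines on slide 2. The direct comparison of PA- with IVP-eSLCs, with its overlap count, therefore cannot tell origin from slide. With the slide as a block, 0 of the 9 genes and 0% of all genes tested were called in it.

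Of the 9 genes, 6 had more than 1 probe, 19 probes in all. On the scanner signal the probes of a gene had 1 direction in each of these 6 genes. A further BMP4 probe gave -2.78, with 62.5 to 140 in eSLCs and 721 and 575 in SCs, and the last BMP4 probe, well above background in SCs only, gave -1.16. The further ID1 probe gave -3.80, with 225 in N7, 14.1 to 37.8 in the other lines and 206 and 930 in SCs, so that N7 again lay between the SC arrays. The further probes of ID2 (1.84), BMPR1A (-0.67) and SMAD4 (-0.98 and -0.46) had the direction of the probe used.

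In the authors' normalized table, 4 of these 19 probes ran against the scanner signal of the same arrays. For ID1 the probe used in the tests had a scanner difference of -4.22 and a table difference of 2.14, with table values of 1950, 1998, 1201, 1286, 1492 and 1483 in the eSLC lines (in the order I2, I9, N2, N7, P1, P4) and 346 and 360 in SCs. The further ID1 probe was lower in eSLCs in both sources (-3.80 and -3.68), so the table holds both directions for 1 gene. The same was seen for BMP4, with table differences of 1.57 for 1 probe and -2.75 and -3.09 for the others, and for BMPR1A, with 2.15 and -0.46. The single SMAD5 probe had -1.76 from the scanner and 2.29 in the table. For these 4 probes the correlation of both sources over the 8 arrays was between -0.90 and -0.74, while 6.60% of the 27500 probes well above background on all arrays had a correlation below 0.

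The table values of these 4 probes, and of the probes used for BMP7 and ID2, were also close within each condition. The median gap between the 2 arrays of a condition was 0.02 to 0.09 on the log2 scale for these 6 probes in the table, and 0.28 to 1.53 for the same probes from the scanner. A gap under 0.1 in the table was found for 10.6% of the 27500 probes and from the scanner for 3.81%. The methods name GeneSpring GX for the normalization without its settings, and the cause of the difference was not tested. BMP7, ID2, SMAD1, SMAD4 and ID3 had the same direction in both sources for every probe. The paper reports BMP4, BMP7, BMPR1A, SMAD4, SMAD5 and ID1 as higher in eSLCs than in SCs. For SMAD4 every probe was lower in eSLCs in both sources, with differences of -0.94, -0.91 and -0.30 in the authors' table. It cites real-time PCR for several key genes of the pathway, and those PCR values were not examined here.

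**Figure D3:**
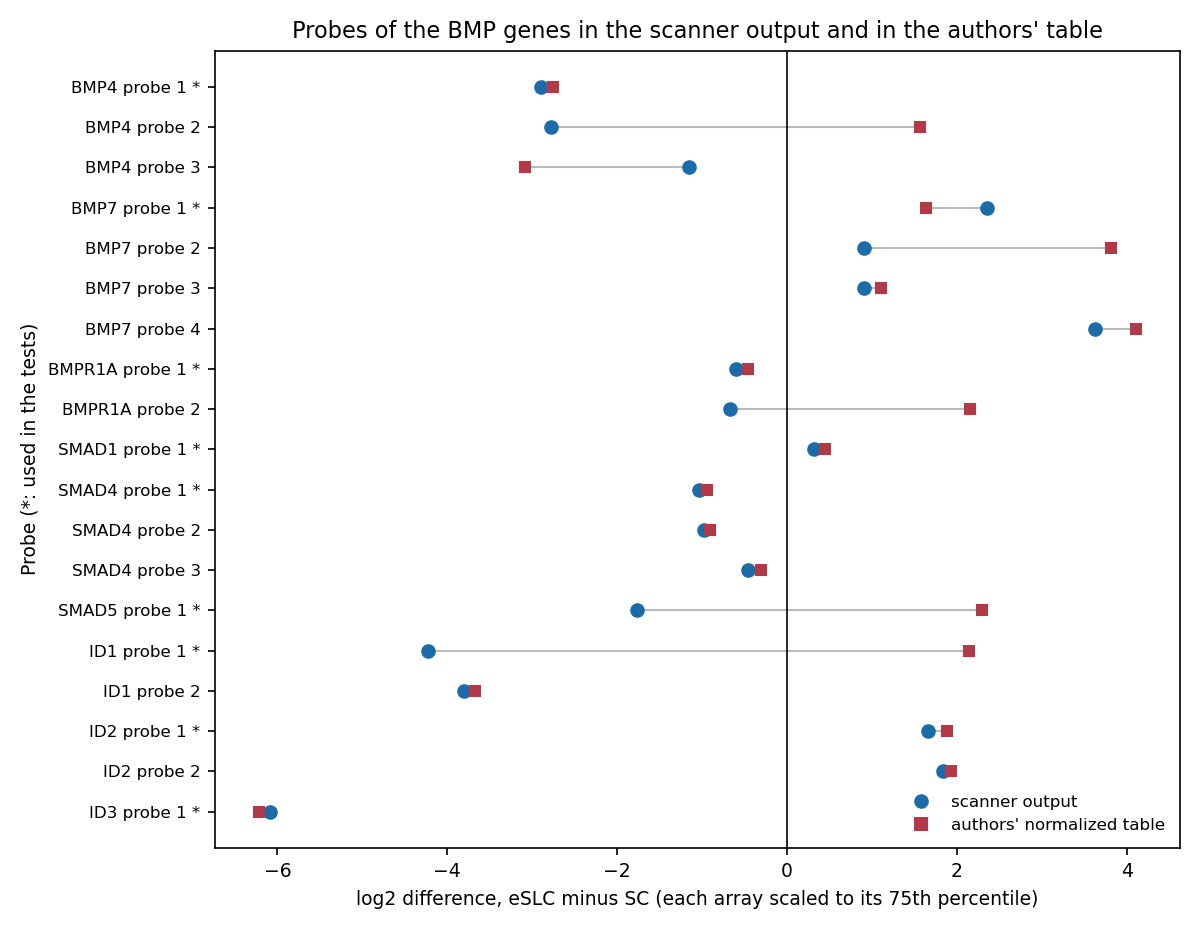
Log2 difference of eSLCs minus SCs (horizontal axis) for 19 probes of 9 BMP genes, from the scanner output (circles) and from the authors' normalized table (squares), each array scaled to its 75th percentile, with the probe used in the tests marked by a star. For 1 probe each of BMP4, BMPR1A, SMAD5 and ID1 the square lies above 0 and the circle below 0, and for the other 15 probes both lie on the same side.

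The rest of the pathway was described by lists chosen with earlier results of these data known, whose counts are set beside the 35.4% of all genes tested that were called (19.7% higher and 15.7% lower). Of 13 other ligands, 10 had a probe and 5 were tested, of which BMP8A was called higher (1.19, limma adjusted p = 0.00219) and 0 lower. BMP8A was a dim probe, with 35.4 to 49.2 in eSLCs and 18.3 and 17.9 in SCs, and it was not called after quantile normalization (0.97), with normexp background (0.40) or in the authors' table (0.84). Of 11 other receptors and co-receptors, 7 were tested, with 1 called higher and 2 lower, or 3 of 7 against 35.4% of all genes. ACVR2B, a type II receptor that binds activins and BMPs, was 254 to 316 in eSLCs and 46.9 and 54.6 in SCs, a log2 difference of 2.50 (limma adjusted p = 0.000148). ENG, the co-receptor endoglin that binds BMP9 and BMP10 in endothelium and is present on mesenchymal cells, was 47.1 to 93.7 in eSLCs and 12448 and 14351 in SCs, a difference of -7.66 (limma adjusted p = 7.12e-06). The type I receptor ACVR1 was lower by -1.56 (limma adjusted p = 0.00545), a call lost without SC passage 5 (adjusted p = 0.0686). The median log2 difference was -0.11 over the 7 receptors and co-receptors, against 0.23 over all genes tested.

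Of 16 extracellular antagonists and modulators, 10 had a probe and 7 were tested, with 0 called higher (19.7% of all genes) and 3 lower (15.7%), or 3 of 7 in either direction against 35.4%. GREM1, which binds BMP2, BMP4 and BMP7 and keeps them from their receptors, was 18.9 to 60.2 in eSLCs and 603 and 714 in SCs, a log2 difference of -4.43 (limma adjusted p = 0.00109). FSTL1, a secreted glycoprotein of mesenchymal cells, was lower by -4.05 (limma adjusted p = 0.000123). TWSG1, which binds BMPs together with chordin, was the other gene called lower, with -2.06. The summed fibroblast markers were also lower in eSLCs, as given above, and their part in these values was not tested. Without N7 the log2 differences of GREM1 and FSTL1 were -4.15 and -3.91.

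Of 12 intracellular SMADs and regulators, 9 were tested, with 1 called higher and 2 lower, or 3 of 9 against 35.4% of all genes. BAMBI, a pseudoreceptor that lacks a kinase domain and dampens BMP and TGF-beta signals, was 1282 to 2733 in eSLCs and 131 and 193 in SCs, a log2 difference of 3.44 (limma adjusted p = 0.000444). SMAD6, an inhibitory SMAD of the BMP branch, was at the floor in 4 eSLC lines and at most 14.2 in the others, against 93.4 and 83.0 in SCs, with a difference of -2.70 (limma adjusted p = 4.97e-05). SMAD9, the third SMAD that BMP receptors phosphorylate, was at the floor in 4 lines and at most 15.6 in the others, against 118 and 452 in SCs, with -4.07 (limma adjusted p = 0.00122). Both differences depend on the floor. The median over the 9 genes was -0.30, and over the 7 antagonists tested it was -2.06, against 0.23 over all genes. Of the SMADs of the TGF-beta branch, SMAD3 was called lower (-2.43, limma adjusted p = 0.000289) and SMAD2 was not (-0.75).

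Of 14 other genes known as BMP targets, 11 were tested and 9 were called (35.4% of all genes), 5 higher (19.7%) and 4 lower (15.7%). GATA3, a transcription factor of the trophoblast, was 17104 to 35339 in eSLCs and 39.5 and 25.0 in SCs, a log2 difference of 9.76 (limma adjusted p = 1.25e-05). It is also one of the trophectoderm markers above. DLX5, a homeobox gene, was higher by 6.06 (limma adjusted p = 0.000390). ATOH8, a basic helix-loop-helix factor, was lower by -6.44 (limma adjusted p = 0.00137) and SNAI2, a repressor of epithelial genes, by -5.43 (limma adjusted p = 0.000790). ATOH8 was at the floor in I2, P1 and P4, and SNAI2 in N2, so both differences depend on the floor. With the floor halved they were -6.71 and -5.58. Genes of this list thus lay in both directions, as ID1, ID3 and ID2 did, with a median difference of 1.26 against 0.23 over all genes tested.

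**Figure D4:**
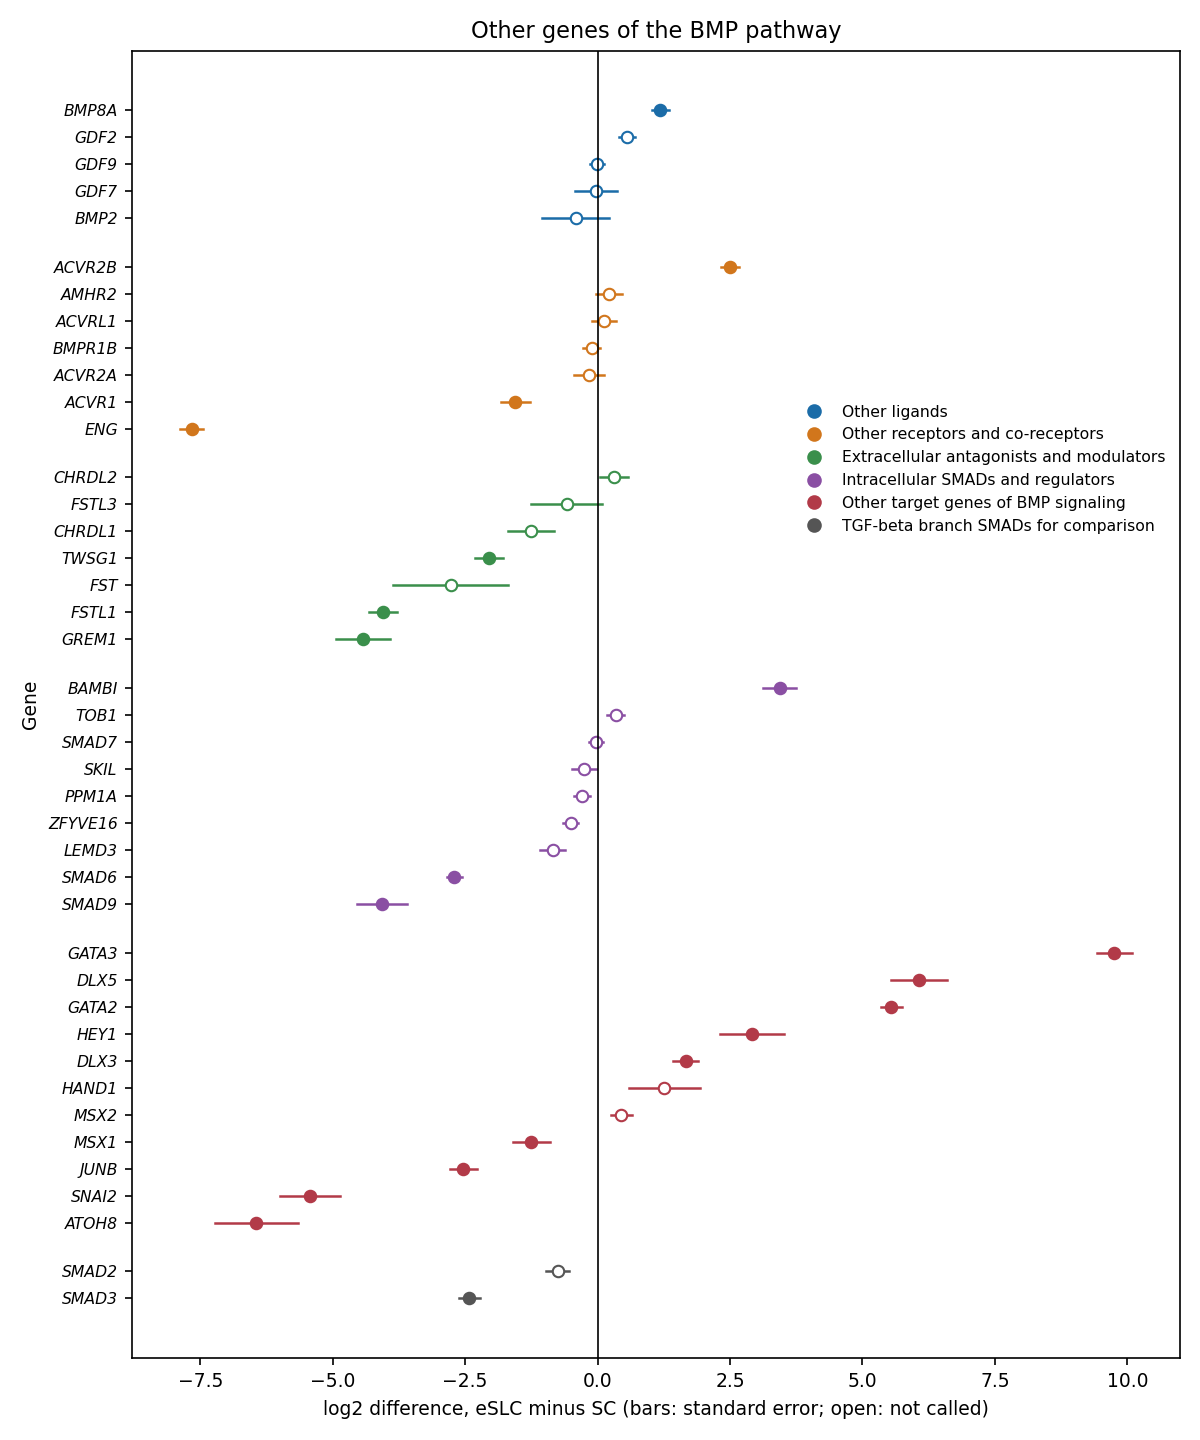
Log2 difference of eSLCs minus SCs (horizontal axis) with the standard error from limma for the tested genes of 6 lists of the BMP pathway and the TGF-beta SMADs, filled where called. Among the targets 5 genes are called higher and 4 lower, and among the antagonists 3 are called lower and 0 higher.

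Among the 6 eSLC lines, ID1, BMP7 and ID3 had the widest ranges of the 9 genes, 4.32, 3.15 and 2.81 on the log2 scale. The genes most like each of them over the 6 arrays were found among 9872 tested genes, as a description, with points that share the scaling of their arrays. ID1 was most like TSPAN5 (Pearson r = 0.993), RAB11FIP2 (0.991) and DGAT2 (0.989), and without N7 these values were 0.834, 0.856 and 0.720. BMP7 was most like C11H2orf49 (0.991), AMZ2 (0.989) and SERPINA1 (0.982), with 0.993, 0.957 and 0.924 without N7. ID3 was most like SERPINF2 (0.993), IGFBP7 (0.988) and HSPA2 (0.987), with 0.996, 0.947 and 0.937 without N7, its 3 low arrays being at the floor.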

How the data were processed

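RNA of 6 eSLC lines and of SCs at 2 passages was labelled with Cy3 and hybridized to Agilent 44K bovine arrays. The authors quantified the scans with Feature Extraction, used GeneSpring GX for normalization, and deposited both the raw scanner intensities (linear) and a table of normalized linear intensities. The GeneSpring settings behind that table are not given in the sources used here. The members and lists were chosen with earlier results of these data known.

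The background-subtracted intensity was used, because the processed signal was out of step with it in 6 of the 8 files (Spearman 0.161 to 0.216, against 0.973 and 0.971 in I2 and N2). Control spots and 1 to 11 outlier spots per array were left out, spots of 1 probe were averaged (43653 probes), signals were divided by each array's 75th percentile (set to 1000), floored at 13.3 and log2-transformed. RefSeq accessions named 26743 probes for 12603 genes, and the probe with the highest mean was used. The 10958 genes that every array of at least 1 condition measured well above background were fitted with limma 3.58.1 in R 4.3.3, as 1 mean per condition over all 8 arrays, which was checked on simulated data. Adjusted p-values are Benjamini-Hochberg values over all genes tested. The number of arrays limits the precision. Named genes were all 10 members, the 2 largest rises and falls called in each list, and the 3 genes most like each of the 3 members of widest range. TWSG1 and SMAD2 were added to complete short counts, after their values were seen. Figures were drawn with matplotlib.

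Alternatives were the scaling, background correction, signal source, filter, probe rule, arrays fitted, the methods' t-test, slide, fold limit, floor and leaving out each array. The normexp correction used the median signal, since the files used here hold no mean signal column. The authors' table without rescaling, and the t-test without adjustment, were added after seeing the data.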

Additional observations from a re-analysis of the deposited data

Results flagged for a closer look

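With low signals set to the floor, 1 eSLC line lay apart from the other 5 in 3 of the 9 BMP genes measured. In each case it was N7, from a nuclear transfer embryo. How often a line lay apart in this way over all genes tested was not computed, so the count cannot be read as particular to these genes. The gap between N7 and the nearest other line was taken as a share of the range of the 6 lines on the log2 scale. It was 0.69 for BMP4, 0.804 for ID1 and 0.689 for ID3. These shares lay above the 95% critical value of Dixon's test for 6 values, which chance passes in about 1 of 20 groups. The share of ID3 depends on the floor. Measured ID3 signals of 7.51 in I2, 9.03 in P1 and 11.8 in P4 were raised to the floor, which shortens the range. Dixon's test was not run on the measured signals, so the ID3 result holds for the floored values only. The normalized signal of N7 was 223 for BMP4 (88.0 to 117 in the other lines), 1328 for ID1 (66.6 to 120) and 93.0 for ID3 (at most 24.3). In the same line the hypoblast markers GATA4 and APOA1 were at 2918 and 112600, against 23.1 to 180 and 1097 to 6823 in the other eSLC lines, while the third hypoblast marker, SOX17, was at 2664 in N7 and 1908 to 2946 in the others. POU5F1, a pluripotency factor, was at 898 against 30.7 to 101. The fibroblast marker sum was 69720 in N7 and at most 29499 in the others, of which FN1 gave 64259 in N7 (7318 to 18836 in the others), whereas COL1A1 was 919 in N7, the lowest of the 6 lines. Their part in the values of N7 was not tested.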

How the results depend on the processing

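No paired analysis was possible because the labels give every sample the same replicate number, 1, and tie no sample of a condition to a sample of another. ID3 kept its direction and call in every alternative that tested it except the processed signal (it was not tested where all 8 arrays had to be well above background), BMP4 in every one except the processed signal and the authors' table without rescaling (-2.76, limma adjusted p = 0.121), SMAD5 in every one except the processed signal and the authors' table, and SMAD1 and BMPR1A were called in none. With the processed signal, which did not track the background-subtracted signal in 6 files, 0 of the 9 BMP genes were called in eSLCs, IVP-, NT- or PA-eSLCs against SCs. The shares of all genes tested that were called there were 4.23%, 2.15%, 2.52% and 2.04%, and GATA3, ENG, BAMBI and GREM1 kept their calls in eSLCs. With this signal log2 differences turned for BMP4 (0.98), BMPR1A (1.76), SMAD4 (1.98), SMAD5 (2.76), ID1 (2.60), ID3 (0.0844), SMAD9 (0.00373) and ATOH8 (1.30). In the authors' table they turned for SMAD5 (2.29, or 2.28 without rescaling) and ID1 (2.14, or 2.13). There BMP7 gained a call (1.64, limma adjusted p = 0.0431) and SMAD4 lost it (-0.94, limma adjusted p = 0.332). The 6 genes called were then 4 higher and 2 lower, where 30.1% of all genes tested were called. The PA-eSLC count of 7 (35.2% of all genes called) was 4 in the authors' table (24.7%) and 4 without the filter on dim genes (26.5%). By the methods' t-test it was 4 without adjustment (32.6%) and 1 with it (15.2%). The NT-eSLC count of 4 was 2 when only NT-eSLCs and SCs were fitted (23.4%), 2 by the t-test without adjustment (23.3%) and 0 with it (2.84%). The IVP-eSLC count of 6 was 0 by the adjusted t-test (8.07%). In the authors' table without rescaling, 2 genes were called in PA- against IVP-eSLCs. Leaving out 1 array gave 4 to 7 genes for eSLCs, 4 to 7 for IVP-, 3 to 5 for NT- and 3 to 8 for PA-eSLCs, and 0 between origins. ID2 lost its call with the processed signal only, and ID1 also with the SC arrays taken as 1 sample (adjusted p = 0.0958). The median of all genes shifted from 0.23 to 0.12 after quantile normalization and to 0.05 in the authors' table. SMAD5, ID3, SMAD6, SMAD9 and BMP8A lay near the lowest signals above background, as did ATOH8 and SNAI2 in some eSLC lines, which limits their folds. The cause of these changes was not tested.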
